A study of Mus musculus with 4 samples.

Results

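Kupffer cells are the resident macrophages of the liver, and 8 genes that mark their identity were followed here in RNA sequencing of hematopoietic stem and progenitor cells. The genes were Spic, Nr1h3, Id3, Maf, Clec4f, Adgre1, Cd68 and Vcam1, taken by name from a table of 39186 genes, and each was found once. The samples were LSK cells (Lin-Sca-1+c-Kit+ cells, the fetal liver fraction that holds the stem cells) sorted from C57BL/6 fetal livers, with 2 Pich-KO and 2 Pich-WT samples. PICH is a DNA translocase of dividing cells, and the study dissected its fetal livers at embryonic day 14.5. The Pich-KO allele is a small deletion at the start of exon 2 of an X-linked gene, made by TALEN in the germline, so that every cell type of the embryo carried it, and the Pich-WT embryos carried no engineered allele. The lineage antibodies named for the study's sorts were against CD4, CD8, Gr-1, B220 and Ter119. F4/80 of macrophages is not among them, while Ter119 marks erythroid cells and Gr-1 myeloid cells such as granulocytes. The gate also required c-Kit and Sca-1, and whether the sequenced samples were sorted with exactly this panel was not stated. Neither the number of embryos in each sample nor their litter was given, so p-values measure only the spread between these samples, which may be technical.

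Kupffer cells arise when macrophage precursors settle in the fetal liver, where contact with endothelial and stellate cells (Notch ligands, BMP and TGF-beta) and local metabolites switch on a tissue program. Its regulators include the nuclear receptor LXR alpha (Nr1h3), the PU.1 relative SPI-C (Spic), the inhibitor ID3 and the basic leucine zipper factor c-MAF. In the fetal liver, macrophages also sit at the centre of erythroblastic islands, where they hold maturing red cells, engulf expelled nuclei and recycle the iron of heme.

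The libraries held between 14703215 and 20933919 reads on genes. Within groups, the chi-square over its degrees of freedom was 17.9 for Pich-KO and 9.63 for Pich-WT, well above sampling noise, so each sample counted as 1 replicate. The targeted gene is listed as Ercc6l and had normalized counts of 1142 and 1232 in Pich-KO against 772 and 661 in Pich-WT samples, so transcripts of the deleted allele were still counted and its level checks no label. Pich-WT sample 2 stood apart in holding 0 reads on 4 Y-linked genes, where the other samples held 1607 to 2848. The labels give no sex, and the groups were thus not matched in Y-linked transcripts. Each change of the 8 genes is therefore also given without Pich-WT sample 2. For single genes of the other lists, changes without it are not given. Transcripts of the sort markers were looked at, which cannot show how pure the sort was. Kit had normalized counts of 4447 and 2772 in Pich-KO against 2328 and 2513 in Pich-WT samples. Ly6a (Sca-1) had 3586 and 2978 against 901 and 1061, so both were plainly expressed in all samples. Adgre1 lay below both in the Pich-KO samples, at 273 and 205, and above both in the Pich-WT samples, at 6617 and 6927.

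All 8 Kupffer cell identity genes were lower in Pich-KO than in Pich-WT LSK cells, from 3.41-fold for Id3 to 79.7-fold for Vcam1. Each passed an adjusted p of 0.05 in a limma fit over 32428 genes with Benjamini-Hochberg adjustment, in which 9.6% of all genes were called lower and 7.58% higher. Among the 10544 genes with a mean normalized count of at least 100, 22.4% were called lower. The median log2 fold change (Pich-KO minus Pich-WT) of the 8 genes was -4.36, beside 0.02 over all genes tested. Only 0.515% of all genes had a log2 fold change of -4 or below, a range that 5 of the 8 reached, and 6.44% were at or below the value of Id3, the least changed of the 8. Both Pich-KO samples lay below both Pich-WT samples for 8 of 8 genes and for 27.2% of all genes. Summed, the normalized counts of the 8 genes were 2872 and 2871 in the Pich-KO samples, against 22102.5 and 22698 in the Pich-WT samples, and those without Id3 and Cd68 were 513 and 413 against 13154 and 14498. In such bulk samples, fewer cells of a type and less RNA per cell cannot be told apart.

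**Figure D1:**
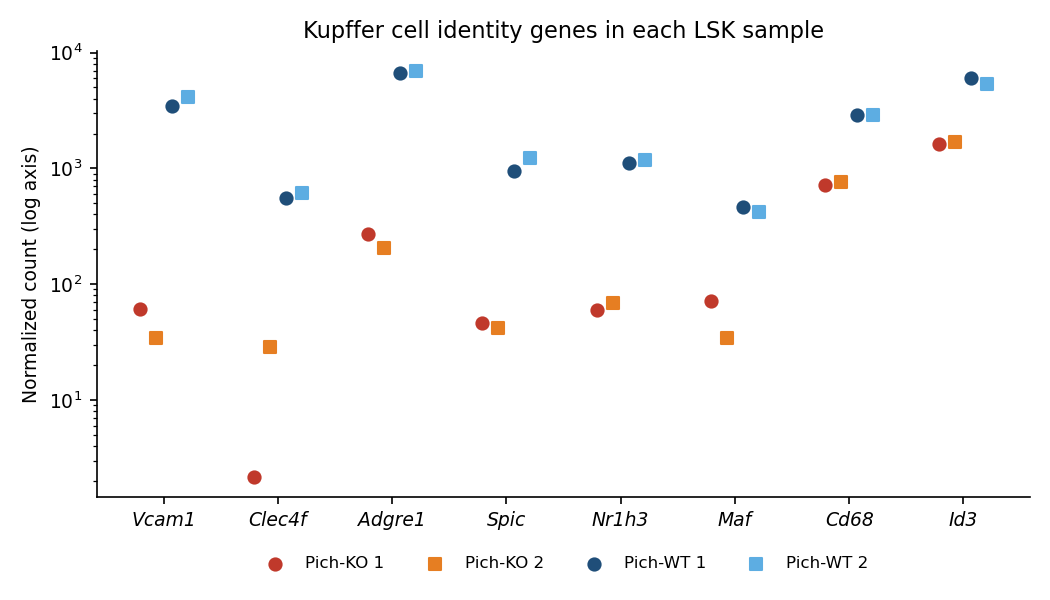
Normalized counts (log axis) of the 8 Kupffer cell identity genes in each of the 4 LSK samples, ordered from the largest to the smallest fold change, with 1 point per sample (circles for sample 1 and squares for sample 2 of each group). Each Pich-KO point lies below both Pich-WT points of its gene, and the Clec4f values of the Pich-KO samples, 2.18 and 28.4, lie farthest apart.

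Spic encodes SPI-C, an ETS factor close to PU.1 that is needed for iron-recycling macrophages and is induced by heme through loss of the repressor BACH1. The gene (ENSMUSG00000004359) spans chr10:88674772-88685015 on the minus strand of GRCm38. Spic had a normalized count of 45.8 and 42.1 in the Pich-KO samples, against 955 and 1228 in the Pich-WT samples. The groups were far apart, and the 2 Pich-KO samples nearly coincided, at 43.9 ± 2.65 (SD, n = 2) against 1092 ± 193 (SD, n = 2). The log2 fold change was -4.59 (standard error 0.21, limma adjusted p = 2.24e-05), and -4.41 without Pich-WT sample 2.

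The bases before the RefSeq start of Spic are shown because PU.1 and its relatives bind purine-rich GGAA sequences. In the 250 bases upstream of that start (chr10:88683024-88683273, GRCm38.p6, minus strand) capitals mark ACTTCC, the reverse complement of the short PU.1 core GGAAGT, whose first base lies 48 bases before the start. This stretch lies inside the GENCODE span of Spic and touches none of its annotated exons.
Spic: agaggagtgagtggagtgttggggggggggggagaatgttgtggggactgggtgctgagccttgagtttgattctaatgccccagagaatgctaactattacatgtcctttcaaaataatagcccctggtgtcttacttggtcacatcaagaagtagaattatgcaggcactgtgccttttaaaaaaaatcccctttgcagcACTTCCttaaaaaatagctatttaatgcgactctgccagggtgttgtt

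Nr1h3 encodes LXR alpha, the oxysterol receptor that drives cholesterol efflux genes and is required for Kupffer cells to keep their identity. The gene (ENSMUSG00000002108) spans chr2:91184061-91202834 on the minus strand. Normalized counts of Nr1h3 were 60.0 and 69.3 in the Pich-KO samples, against 1107 and 1186 in the Pich-WT samples. The spread within each group was small beside the gap between them, with 64.7 ± 6.61 against 1146 ± 56.1 (SD, n = 2 each). Nr1h3 had a log2 fold change of -4.13 (standard error 0.18, limma adjusted p = 2.22e-05), and -4.08 without Pich-WT sample 2. The table also lists Gm13783, a transcript on the same strand that shares 34 exon bases with Nr1h3 and had normalized counts of at most 3.13 in any sample.

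Id3 encodes an inhibitor of E proteins, a helix-loop-helix protein without a DNA-binding region that is raised by BMP and TGF-beta signals and is needed for Kupffer cell development. The gene (ENSMUSG00000007872) spans chr4:136143497-136145755 on the plus strand. For Id3 the normalized count was 1636 and 1698 in the Pich-KO samples, against 6042 and 5324 in the Pich-WT samples. Id3 was thus still abundant in Pich-KO LSK cells, at 29.3% of the Pich-WT mean. Its log2 fold change was -1.77 (standard error 0.10, limma adjusted p = 5.41e-05), the smallest of the 8, and -1.86 without Pich-WT sample 2.

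Maf encodes c-MAF, a factor that holds macrophages in a non-dividing, differentiated state. The gene (ENSMUSG00000055435) spans chr8:115682942-115707794 on the minus strand. The normalized count of Maf was 70.9 and 34.1 in the Pich-KO samples, against 466 and 421 in the Pich-WT samples. The Pich-KO samples held 65 and 30 reads, with exact 95% Poisson intervals of 50.2 to 82.8 and 20.2 to 42.8 reads that did not meet. These intervals cover counting error only. On the log2 scale the fold change was -3.14 (standard error 0.34, limma adjusted p = 0.000625), and -3.22 without Pich-WT sample 2.

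Clec4f encodes a C-type lectin that binds galactose-bearing sugars and is found on Kupffer cells of the mouse and hardly elsewhere. The gene (ENSMUSG00000014542) spans chr6:83644542-83656187 on the minus strand. Clec4f was counted at 2.18 and 28.4 in the Pich-KO samples, against 554 and 608 in the Pich-WT samples. The low values stood on 2 reads in Pich-KO sample 1 (interval 0.242 to 7.22) and 25 reads in Pich-KO sample 2 (16.2 to 36.9), so the Pich-KO samples differed from each other by more than counting error. The log2 fold change was -5.91 with the widest standard error of the 8 genes, 0.85 (limma adjusted p = 0.00244). Its size depended on which Pich-KO sample was kept, at -7.51 without Pich-KO sample 2 and -4.30 without Pich-KO sample 1, and was -5.84 without Pich-WT sample 2.

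A site before the RefSeq start of Clec4f is shown for comparison with Spic, since it holds the same GGAAGT letters, in capitals, here on the gene's strand and 33 bases before the start (chr6:83656132-83656161, GRCm38.p6, minus strand). Unlike the Spic stretch, it lies within annotated exon bases of the gene itself, which GENCODE ends at 83656187.
Clec4f: gaggcaggtttgGGAAGTtgtcctgacctc

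The RefSeq promoter table held 6 starts for 5 of the genes (Spic, Clec4f, Cd68, Id3 and, with 2 starts, Nr1h3). Maf, Adgre1 and Vcam1 were not matched. GGAAGT, read on both strands in the 250 bases before each start, was found in 2 of these 6 windows (Spic and Clec4f) and in 19.7% of 32851 promoter windows in the table. The longer ETS core AGGAAGT, which contains GGAAGT, was found in 1 of 6 (Spic) and in 7.69% of all windows. The core of the LXR element, AGGTCA, was found in 1 of 6 (Clec4f) against 14%, and the core of the MAF element, TGCTGA, in 2 of 6 (Spic and Clec4f) against 16.1%. The RBPJ core TGGGAA was found in 4 of 6 windows (both Nr1h3 windows, which overlap, Clec4f and Cd68) against 21.6%, and in Clec4f it overlaps the GGAAGT match. GGCGCC, an element of BMP-responsive SMAD proteins, was found in both Nr1h3 windows against 9.59%, and the interferon-stimulated response element and the TATA box letters TATAAA in 0 of 6 against 2.98% and 12.4%. These matches describe the letters of the windows and no binding.

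Adgre1 encodes F4/80, the adhesion G-protein-coupled receptor by which mouse macrophages are commonly stained. The gene (ENSMUSG00000004730) spans chr17:57358691-57483527 on the plus strand. F4/80 transcripts had a normalized count of 273 and 205 in the Pich-KO samples, against 6617 and 6927 in the Pich-WT samples. It had the highest read number of the 8 genes in both Pich-WT samples, 8467 and 6927, against 250 and 180 reads in the Pich-KO samples. F4/80 mRNA had a log2 fold change of -4.84 (standard error 0.16, limma adjusted p = 7e-06), and -4.80 without Pich-WT sample 2.

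Vcam1 encodes the adhesion receptor that binds integrin alpha 4 beta 1 on erythroblasts and progenitors, and it is made by island macrophages, Kupffer cells and also by endothelial and stromal cells. The gene (ENSMUSG00000027962) spans chr3:116109949-116129688 on the minus strand. Vcam1 reached a normalized count of 61.1 and 34.1 in the Pich-KO samples, against 3456 and 4128 in the Pich-WT samples. The Pich-KO samples kept 1.26% of the Pich-WT mean, the lowest share of the 8 genes. For Vcam1 the log2 fold change was -6.34 (standard error 0.27, limma adjusted p = 1.74e-05), and -6.21 without Pich-WT sample 2. Gm43109, an antisense gene that shares 61 of the 8870 exon bases of Vcam1, had normalized counts of at most 3.13 in any sample.

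Cd68 encodes macrosialin, a lysosomal glycoprotein of the LAMP family that monocytes and macrophages of all tissues make. The gene (ENSMUSG00000018774) spans chr11:69664213-69666153 on the minus strand. Cd68 had normalized counts of 723 and 760 in the Pich-KO samples, against 2906 and 2876 in the Pich-WT samples. These samples nearly coincided within each group. Its log2 fold change was -1.96 (standard error 0.11, limma adjusted p = 4.93e-05), and -1.97 without Pich-WT sample 2.

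The 250 bases before the RefSeq start of Cd68 (chr11:69666171-69666420, GRCm38.p6, minus strand) are also shown. They hold GGAA but no GGAAGT on either strand. The Id3 and Nr1h3 windows lack GGAAGT too, and these genes had log2 fold changes of -1.77 and -4.13. All 250 bases of the Id3 window lie in annotated exons, inside the GENCODE span of the gene. The Nr1h3 windows hold 35 and 116 exon bases. Capitals mark an E-box, CAGCTG, of the CANNTG class that E proteins bind and ID proteins keep them from. It lies 144 bases before the start, and CANNTG was found in 2 of the 6 windows and in 66.2% of all windows.
Cd68: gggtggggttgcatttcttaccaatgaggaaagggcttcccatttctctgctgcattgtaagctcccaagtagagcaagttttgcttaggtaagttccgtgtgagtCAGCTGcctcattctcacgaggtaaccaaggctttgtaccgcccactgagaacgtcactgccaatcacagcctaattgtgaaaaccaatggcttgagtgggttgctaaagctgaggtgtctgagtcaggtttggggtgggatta

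The same 8 genes were also called by edgeR (quasi-likelihood, recovered reads, lower for 8 of 8 genes and 20.7% of 16608 genes) and by edgeR with any 1 sample left out. They depended on limma's prior variance following the mean: without that trend, the adjusted p of the 8 genes was 0.0852 to 0.134 and 0 passed, and limma with any 1 sample left out called 0 of them.

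Levels of the 8 genes were compared with each other as normalized counts per kilobase of gene length. In Pich-WT LSK cells Id3 was highest at 3173 ± 283, followed by Cd68 at 2300 ± 17.1 and Adgre1 at 2091 ± 67.7 (SD, n = 2 each). Nr1h3 at 456 ± 22.3 and Vcam1 at 427 ± 53.6 overlapped between samples, so their order was not resolved. Spic at 284 ± 50.3, Clec4f at 235 ± 15.4 and Maf at 53.8 ± 3.84 came last. In Pich-KO LSK cells the order began alike, with Id3 at 931 ± 24.6, Cd68 at 590 ± 21, Adgre1 at 73.7 ± 14.9, Nr1h3 at 25.7 ± 2.63 and Spic at 11.4 ± 0.69. Clec4f, with 0.88 and 11.5 in the Pich-KO samples, was not resolved from Spic, whose samples were at 11.9 and 10.95. Vcam1, which lay near Nr1h3 in Pich-WT cells, came to 5.37 ± 2.15 and overlapped with Maf at 6.37 ± 3.16 and with Clec4f at 6.19 ± 7.51.

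Each gene was also set against Adgre1 in the same sample, as a log2 ratio of normalized counts (plus 1) per kilobase, which is a description with no test. The ratio of Spic to Adgre1 was -2.79 and -2.50 in Pich-KO against -3.04 and -2.74 in Pich-WT samples, and these ranges overlapped. That of Nr1h3 differed by 0.71 in the mean and that of Maf by 1.69, both higher in the Pich-KO samples and without overlap. For Id3 the ratio was 3.43 and 3.90 in Pich-KO samples against 0.72 and 0.47 in Pich-WT samples. For Cd68 it was 2.77 and 3.25 against 0.18 and 0.10. Id3 and Cd68 thus lay above Adgre1 in all 4 samples, and farther above it in the Pich-KO samples. Vcam1 went the other way, with -3.59 and -4.004 in Pich-KO samples against -2.39 and -2.20 in Pich-WT samples. The ratio of Clec4f was -6.04 and -2.42 in Pich-KO samples, on either side of the Pich-WT values of -3.19 and -3.12.

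**Figure D2:**
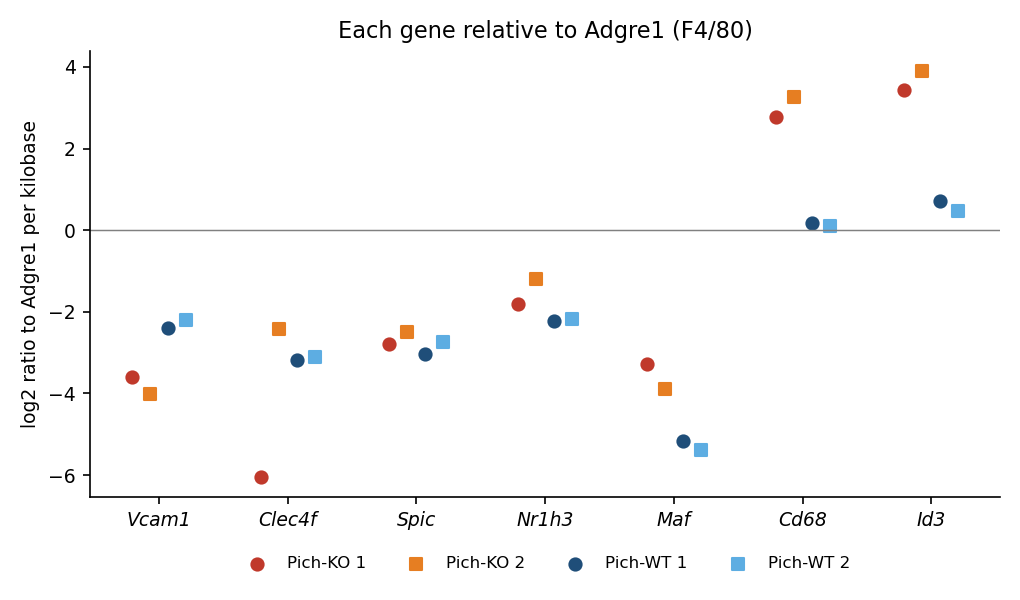
Log2 ratio of the normalized count (plus 1) per kilobase of 7 genes to that of Adgre1 in the same sample, with 1 point per sample and the line at 0 marking equal levels per kilobase. Spic kept a like ratio in all 4 samples (-3.04 to -2.50), Cd68 and Id3 lie above the line in all 4, farther in Pich-KO than in Pich-WT samples, and Clec4f of Pich-KO sample 1 lies lowest at -6.04.

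For each of the 8 genes, the gene with the most similar profile over the 4 samples was sought among 16272 genes with a mean normalized count of at least 10, by the Euclidean distance of centred log2 values. The nearest to Spic was C1qb, a complement subunit made by macrophages, at a distance of 0.237, and the nearest to Adgre1 was Cd38, an NAD-consuming ectoenzyme, at 0.228. Clec4f lay nearest to Cd5l, a secreted macrophage scavenger protein, but only at 0.807, and Vcam1 nearest to AC167229.1 at 0.650. Nr1h3 lay nearest to Tmem86a at 0.182, Maf to Mfhas1 at 0.105, Cd68 to Dapk2 at 0.0340 and Id3 to Mkrn1 at 0.0268. The distances were lowest for Id3 and Cd68, the genes with the smallest fold changes, and 4 samples in 2 groups leave many genes with similar profiles.

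The lower levels were not limited to the 8 genes. Of 26 other Kupffer and resident macrophage genes, 24 were called lower in Pich-KO LSK cells, 0 were called higher and 2 did not pass (beside 9.6% and 7.58% of all genes), with a median log2 fold change of -4.56. Their summed normalized count was 12660 and 10345 in the Pich-KO samples, against 87868 and 95272 in the Pich-WT samples. Fcna, a ficolin that binds microbial sugars, had 10.9 and 29.6 against 2881 and 3647 normalized counts (log2 fold change -7.41, limma adjusted p = 3.99e-05). Marco, a scavenger receptor for bacteria, had 3.27 and 77.3 against 2572 and 2878 (-7.22, limma adjusted p = 0.00284). Cd5l had 20.7 and 110 against 3976 and 4601 (-6.44, limma adjusted p = 0.000367). Timd4, a receptor by which resident macrophages engulf dying cells, had 13.1 and 22.7 against 1475 and 1688 (-6.43, limma adjusted p = 2.22e-05). For each of these the Pich-KO samples lay far below both Pich-WT samples.

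At the other end of this list, Csf1r, the growth factor receptor that macrophages and also their precursors carry, had 7268 and 6111 normalized counts in Pich-KO against 16306 and 17259 in Pich-WT samples (log2 fold change -1.33, limma adjusted p = 0.000111). Siglec1, a sialic acid receptor, had a log2 fold change of -1.51. Fcgr1, an Fc receptor shared with monocytes, had 1400 and 1213 against 1121 and 1185 normalized counts, a log2 fold change of 0.18 that did not pass (limma adjusted p = 0.437). The other gene that did not pass, Slc16a9, is named after its values were seen and had 17.5 and 3.41 against 32.8 and 32.0 (limma adjusted p = 0.109). Folr2, Cd207, Vsig4 and Fabp7, also named after their values were seen, had at most 2 reads in either Pich-KO sample, so the size of their fitted change depends on the pseudocount. With these 4 genes set at a floor of 3 reads per Pich-KO sample, the median of the list was -4.16.

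**Figure D3:**
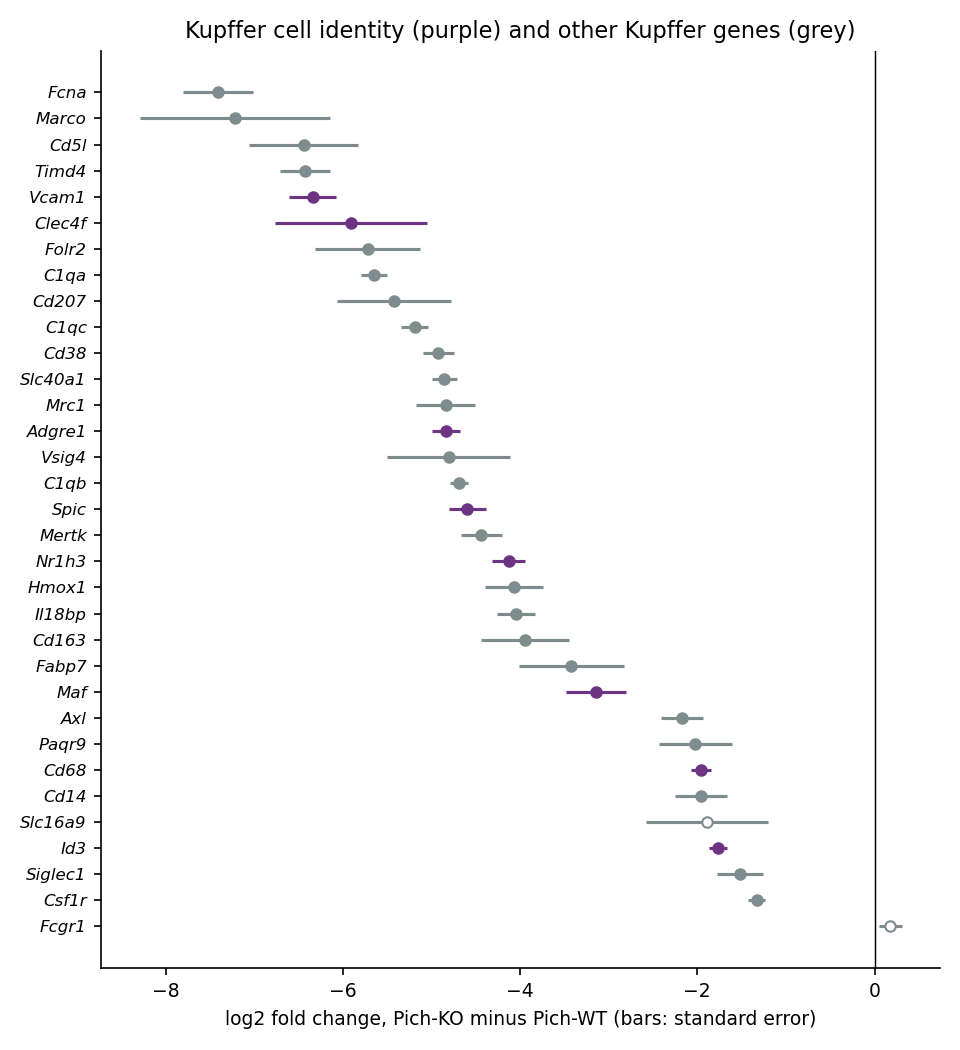
Log2 fold change (Pich-KO minus Pich-WT, limma on log2 of the normalized count plus 1) of the 8 Kupffer cell identity genes and 25 of the 26 other Kupffer and resident macrophage genes, with bars of 1 standard error, filled circles past an adjusted p of 0.05 and open circles not past it. The 8 genes range from -6.34 to -1.77 among the others, and Fcgr1 is the gene to the right of 0, at 0.18.

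Genes of macrophage precursors and monocytes moved in both directions. Of 18 such genes, 10 were called lower and 4 higher (beside 9.6% and 7.58% of all genes), and 4 did not pass. Among all genes with a mean normalized count of at least 100, 22.4% were called lower. The median log2 fold change of the 18 was -0.92. Cebpb, a factor of monocyte differentiation and inflammation, had 79.6 and 72.8 normalized counts in Pich-KO against 1390 and 417 in Pich-WT samples (log2 fold change -3.31, limma adjusted p = 0.00239). Cx3cr1, the fractalkine receptor that macrophage precursors lose as they become Kupffer cells, had 1077 and 774 against 4342 and 3950 (-2.18, limma adjusted p = 0.00012). Sirpa, the receptor for the CD47 signal, had a log2 fold change of -1.86. Higher in Pich-KO were Ly6c2, an antigen of inflammatory monocytes, with 1068 and 2891 against 209 and 244 (2.96, limma adjusted p = 0.00162), Runx1, a hematopoietic factor (1.46, limma adjusted p = 0.000589), and Zeb2, a repressor used by several myeloid lineages (1.24, limma adjusted p = 0.000533). Spi1, which encodes the myeloid master factor PU.1, had 6614 and 6775 against 6316 and 5918 normalized counts, a log2 fold change of 0.13 that did not pass (limma adjusted p = 0.352).

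Of 18 partners and targets of LXR, 10 were called lower and 3 higher (beside 9.6% and 7.58% of all genes), and 5 did not pass. Their median log2 fold change was -1.22. The 3 lowest were Pltp, Apoe and Lpl. Pltp, the phospholipid transfer protein, had 14.2 and 12.5 normalized counts in Pich-KO against 671 and 690 in Pich-WT samples (log2 fold change -5.57, limma adjusted p = 2.22e-05). Apoe, the apolipoprotein of macrophages and hepatocytes, had 4449 and 2959 against 35900 and 29871 (-3.17, limma adjusted p = 4.48e-05), and Lpl, lipoprotein lipase, 791 and 326 against 4395 and 4761 (-3.17, limma adjusted p = 0.000627). The 3 called higher were Scd2, Fasn and Srebf1. Scd2, a fatty acid desaturase, had 7331 and 9129 against 595 and 599 (3.77, limma adjusted p = 7.43e-06), Fasn, fatty acid synthase, 4482 and 4115 against 681 and 657 (2.68, limma adjusted p = 1.69e-05), and Srebf1, their SREBP factor, 3803 and 4367 against 3152 and 3217 (0.36, limma adjusted p = 0.0492). Nr1h2, which encodes LXR beta and is made in most cells, had 1614 and 1829 against 2088 and 1794 (-0.17, limma adjusted p = 0.444), while Nr1h3 had a log2 fold change of -4.13.

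A list of 26 genes held signals that act on Kupffer cells (24 of Notch, BMP and TGF-beta signalling and the CSF1R ligands Csf1 and Il34). Of these, 13 were called lower and 3 higher (beside 9.6% and 7.58% of all genes), and 10 did not pass. The median log2 fold change was -1.21. With the 1 gene at the floor of 3 reads in Pich-KO set at that floor, the median was -0.90. A pair of Notch ligands was among the 3 lowest. Dll4, the ligand of sinusoidal endothelium, had 41.4 and 10.2 normalized counts in Pich-KO against 692 and 436 in Pich-WT samples (-4.66, limma adjusted p = 0.00107), and Dll1 had 19.6 and 14.8 against 145 and 161 (-3.09, limma adjusted p = 0.000509). Smad7, a feedback inhibitor of BMP and TGF-beta, had 43.6 and 34.1 against 451 and 369 (-3.37, limma adjusted p = 0.000121). The receptors Notch1 (1.27, limma adjusted p = 0.00305), Notch2 (1.22, limma adjusted p = 0.00244) and Tgfbr1 (1.49, limma adjusted p = 0.00322) were higher in Pich-KO LSK cells. Other receptors of the list, named after their values were seen, were called lower: Eng (-2.44), Acvrl1 (-2.15), Bmpr1a (-1.62) and Tgfbr2 (-1.40). Bmpr2 (-0.58) did not pass. Hes1 (-2.74) and Nrarp (-2.56), also named after their values were seen, were called lower too. The ligands Dll4 and Dll1 and the receptors Notch1 and Notch2 thus moved in opposite directions, but the receptors of the list did not move together. Id1, which BMP raises as it does Id3, had 1256 and 1633 against 1890 and 1802, with a log2 fold change of -0.37 that did not pass (limma adjusted p = 0.14).

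Of 12 genes of heme and iron handling, the setting in which Spic is induced, 7 were called lower, 1 higher and 4 did not pass. Over all genes, 9.6% were called lower and 7.58% higher. Slc40a1, the iron exporter ferroportin and a target of SPI-C and BACH1, had 551 and 507 normalized counts in Pich-KO against 13376 and 17538 in Pich-WT samples (log2 fold change -4.85, limma adjusted p = 4.55e-06). Hmox1, heme oxygenase, had 947 and 405 against 9994 and 10790 (-4.07, limma adjusted p = 0.00017). Slc48a1, a transporter that brings heme out of the phagolysosome, had 1686 and 1580 against 4300 and 4411 (-1.42, limma adjusted p = 9.57e-05). These 3 genes of the heme-iron route were thus lower alongside Spic. Slc40a1 and Hmox1 are also counted among the other Kupffer and resident macrophage genes above. Bach1, the repressor itself, had 309 and 242 against 234 and 227 (0.25, limma adjusted p = 0.492), and the plasma heme binder Hpx (0.43, limma adjusted p = 0.623) did not pass either. Hp, which binds free hemoglobin and is also stored by granulocytes, was higher at 701 and 2106 against 370 and 315 (1.83, limma adjusted p = 0.0217).

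Of 15 erythroblastic island genes found in the table, 10 were called lower and 1 higher (beside 9.6% and 7.58% of all genes), and 4 did not pass. Gas6, a bridge between dying cells and phagocytes, had 62.2 and 19.3 normalized counts in Pich-KO against 1291 and 950 in Pich-WT samples (log2 fold change -4.95, limma adjusted p = 0.000355), and Mertk, its receptor on macrophages, 44.7 and 33 against 780 and 932 (-4.44, limma adjusted p = 3.78e-05). Cd163, the hemoglobin-haptoglobin receptor, had 4.36 and 2.27 against 69.6 and 58.0 (-3.94, limma adjusted p = 0.00121). Mertk, Cd163 and Siglec1 of this list are also counted among the other Kupffer and resident macrophage genes. Itga4, the integrin chain that binds VCAM1 from the side of progenitors and erythroblasts, was higher, with 5987 and 4798 against 4015 and 3595 (0.50, limma adjusted p = 0.0278). Itgb1, the beta chain of that integrin (named after its values were seen), had 5364 and 4272 against 8096 and 7981. It was lower (-0.75, limma adjusted p = 0.00312), though by far less than Vcam1 (-6.34). Maea, an adhesion protein of macrophages and erythroblasts, had 2404 and 2491 against 2538 and 2373 (limma adjusted p = 0.984), and Epo, the erythropoietin gene, had normalized counts of at most 2.18 in any sample.

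**Figure D4:**
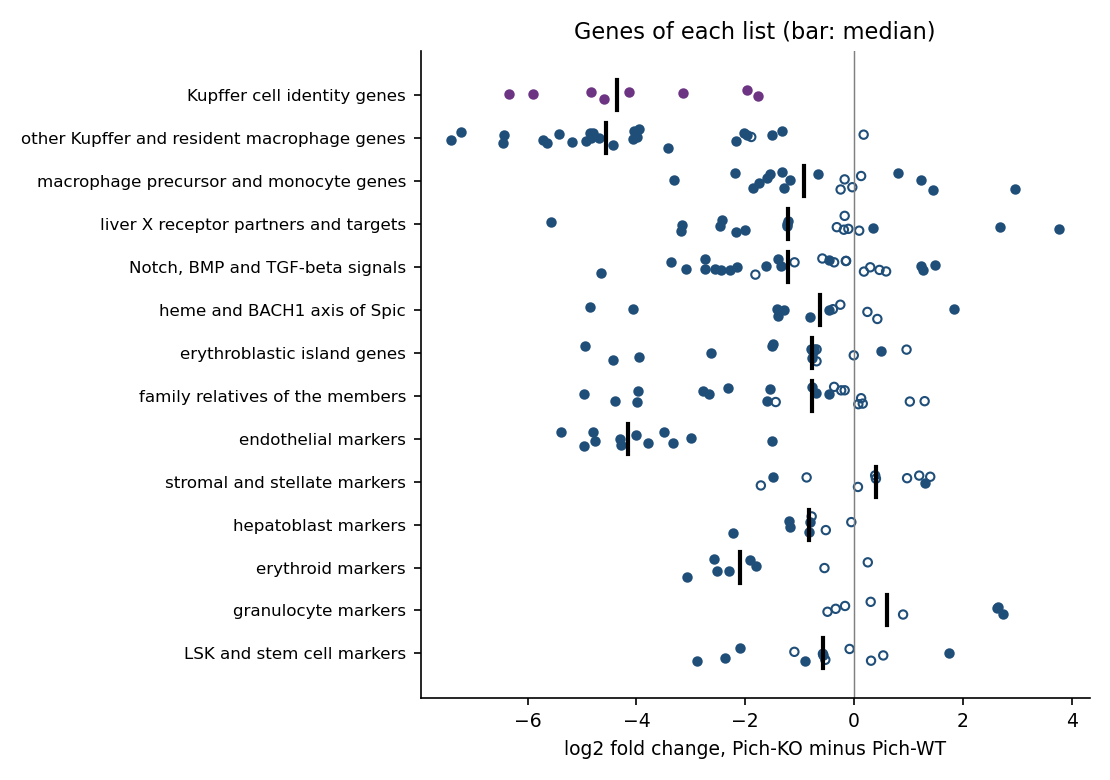
Log2 fold change (Pich-KO minus Pich-WT) of each gene in the Kupffer cell identity set (purple) and in 13 other lists (blue), with 1 circle per gene, filled where past an adjusted p of 0.05 in the limma fit over all genes and open where not, and a bar at each list's median. The Kupffer cell identity, other Kupffer and endothelial lists lie farthest to the left, with medians of -4.36, -4.56 and -4.15.

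Closely related genes were set beside the 8 to see whether whole families moved. Of 21 relatives found in the table, 12 were called lower and 0 higher (beside 9.6% and 7.58% of all genes), and 9 did not pass. Their median log2 fold change was -0.77, or -0.70 with 1 gene set at the read floor, against -4.36 for the 8 genes themselves. Among ETS factors, Spi1 and Spib (log2 fold change 0.08, limma adjusted p = 0.924) did not pass while Spic was lower. Nrl, a MAF factor of photoreceptors, and Nr1h4, the bile acid receptor of hepatocytes, had normalized counts of at most 9.09 and 5 in any sample.

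In the ID family, Id2, which restrains lymphoid fates, was lower with 2509 and 1953 normalized counts in Pich-KO against 6203 and 7218 in Pich-WT samples (-1.60, limma adjusted p = 0.000234). Its log2 fold change was close to the -1.77 of Id3. Id4, with fewer reads, had a log2 fold change of -3.96 (limma adjusted p = 0.00777), and Id1 did not pass. The C-type lectins near Clec4f in name split. Clec4g, a lectin of sinusoidal endothelium (-4.96, limma adjusted p = 0.000311), and Clec4n, the macrophage receptor dectin-2 (-4.40, limma adjusted p = 3.78e-05), were lower. The inflammation-induced lectins Clec4e (-0.24, limma adjusted p = 0.524) and Clec4d (1.03, limma adjusted p = 0.0582) did not pass.

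Among the relatives of Adgre1, Adgre4, a receptor of macrophages, had 53.4 and 35.2 normalized counts in Pich-KO against 236 and 394 in Pich-WT samples (-2.78, limma adjusted p = 0.000973), and Adgre5 (CD97), which most leukocytes carry, had 380 and 490 against 2591 and 2888 (-2.66, limma adjusted p = 5.41e-05). Both moved less than Adgre1 itself (-4.84). The adhesion receptors related to Vcam1 were also lower, at -2.32 for Madcam1 (limma adjusted p = 0.0127), -0.77 for Icam1 (limma adjusted p = 0.0116) and -0.70 for Icam2 (limma adjusted p = 0.0187), beside -6.34 for Vcam1. The lysosomal relatives of Cd68, Lamp1 (-1.54, limma adjusted p = 0.000827) and Lamp2 (-0.46, limma adjusted p = 0.0402), were lower, and Lamp3, with normalized counts of at most 18.2, did not pass (limma adjusted p = 0.877).

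Among markers of other cells that the gate could hold, the endothelial and most erythroid ones were lower along with the Kupffer cell identity genes. The median log2 fold changes of hepatoblast, stromal and granulocyte markers were -0.82, 0.40 and 0.60. All 12 endothelial markers were called lower (beside 9.6% of all genes), with a median log2 fold change of -4.15. Their summed normalized counts were 4040 and 2178 in Pich-KO against 49921 and 34377 in Pich-WT samples. Lyve1, a hyaluronan receptor of sinusoidal and lymphatic endothelium that some macrophages share, had 326 and 144 against 11442 and 7322 (-5.39, limma adjusted p = 7.73e-05). Oit3, of sinusoidal endothelium, had 387 and 157 against 8326 and 5634 (-4.79, limma adjusted p = 0.000156), and Pecam1, which blood cells also express, 1138 and 859 against 3146 and 2488 (-1.5, limma adjusted p = 0.000795). Among 8 erythroid markers, of cells that the Ter119 antibody of the panel would remove once they carry that antigen, 6 were called lower (median -2.10), with sums of 28688 and 31442 against 156420 and 118491. Alas2, which starts heme synthesis in red cells, had the largest change there (-3.07, limma adjusted p = 5.75e-05), and the transferrin receptor Tfrc did not pass (0.25, limma adjusted p = 0.252). Hbb-bt was also lower (-2.57, limma adjusted p = 2.87e-05), though globin genes share reads with near-identical copies and their counts are uncertain.

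Among 8 hepatoblast markers, 5 were called lower (median -0.82), with sums of 3037 and 2554 against 4788 and 4258. For this and the next lists, the shares over all genes were 9.6% called lower and 7.58% higher. Alb, serum albumin, had 563 and 548 normalized counts in Pich-KO against 964 and 1015 in Pich-WT samples (-0.83, limma adjusted p = 0.004). Of 10 stromal and stellate markers, 1 was called lower (Cxcl12, -1.49, limma adjusted p = 0.0318), 1 higher (Col1a1, 1.30, limma adjusted p = 0.0436) and 8 did not pass, with sums of 1259 and 760 against 638 and 442. Of 12 LSK and stem cell markers, 5 were called lower, with Procr (-2.88, limma adjusted p = 0.000872) and Hlf (-2.37, limma adjusted p = 0.0012) lowest, and Ly6a was called higher (1.74, limma adjusted p = 0.000167). Kit did not pass (0.54, limma adjusted p = 0.114). The share of macrophages, endothelial or red cells in each sorted sample was not measured, and its part in the lower Kupffer cell identity genes was not tested.

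The 2 Pich-KO samples were last compared with each other. The Kupffer cell identity genes split evenly, with 4 of 8 higher in Pich-KO sample 1 (48% of all genes tested were), and a median log2 ratio of sample 1 to sample 2 of 0.03. Their sums of 2872 and 2871 normalized counts were mostly Id3 and Cd68 (2359 and 2459), and the other 6 genes summed to 513 and 413. Of the other Kupffer genes, 19 of 26 were higher in sample 1. The exceptions included Marco (3 reads in sample 1, interval 0.619 to 8.77, and 68 in sample 2, interval 52.8 to 86.2) and Cd5l (19 reads, interval 11.4 to 29.7, and 97 reads, interval 78.7 to 118), which with Clec4f were lower in sample 1 beyond counting error. All 12 endothelial markers were higher in sample 1, with a median log2 ratio of 1.04, as were Vcam1, Maf, Adgre1 and Spic among the 8 genes. Higher values in sample 1 were not particular to these genes. All 12 LSK and stem cell markers (median log2 ratio 0.62) and 9 of 10 stromal and stellate markers (median 0.93) were higher there too. Clec4f, Marco and Cd5l thus differed between Pich-KO samples in the direction opposite to most genes of these lists.

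**Figure D5:**
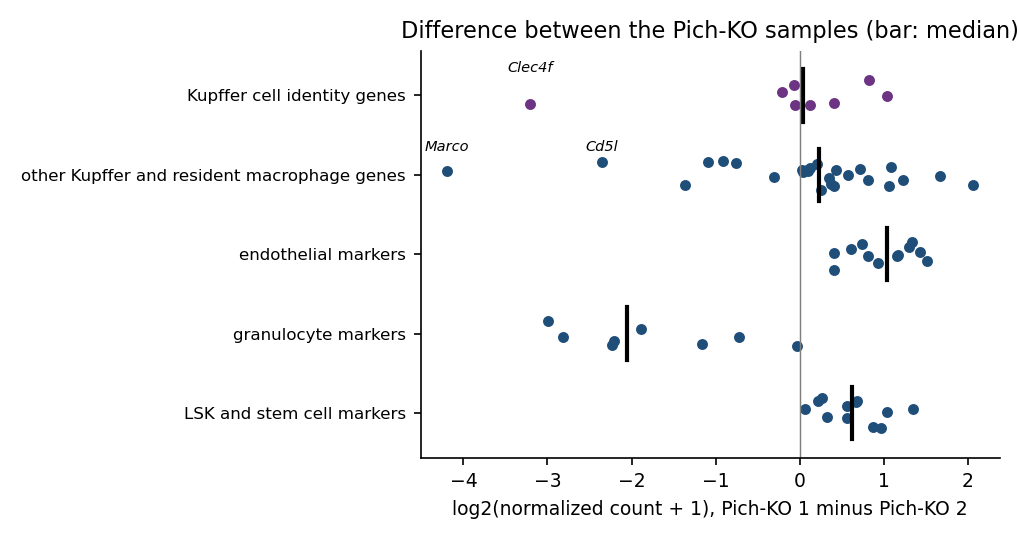
Difference in log2 of the normalized count plus 1 between Pich-KO sample 1 and Pich-KO sample 2 for each gene of 5 lists, with 1 point per gene, a bar at each median and a line at 0 for equal values. The Kupffer cell identity genes lie on both sides of 0 around a median of 0.03, with Clec4f far to the left. All 12 endothelial markers (median 1.04) and all 12 LSK and stem cell markers (median 0.62) lie to the right.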

How the data were processed

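RNA of LSK cells from 2 Pich-KO and 2 Pich-WT samples is held in 1 deposited table, in which the authors give each sample's signal, the read count on each gene divided by 1 size factor per sample. In each sample 100% of values were whole multiples of 1 step within 0.05 reads, which gave back the reads. The authors' deposited columns of log2 fold change, p-value and group mean hold their own comparison and were not used. Per the labels, the submitters' processing notes name Bowtie 0.12.2 and the builds mm8 and mm9, but 97.8% of 39131 genes, with all 8 studied here, had the start and end of GENCODE M21, so coordinates are given on GRCm38. The counter was not given in the sources used here.

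limma 3.58.1 was fitted to log2(value + 1) of genes with a mean of 1 or more, two-sided and with a mean-dependent prior variance, and p-values were adjusted over all 32428 genes. With 2 samples a group, an exact two-sided permutation test of 1 gene cannot go below p = 0.333, so none was run. The procedure was also run on counts simulated with the same dispersion for all genes. That setting is simpler than the spread seen between these samples, so no result rests on it. Alternatives were a pseudocount of 0.1, no filter, at least 10 reads in every sample, no variance trend, total-read scaling, an absolute log2 fold change of 1 or more, a replicate block, edgeR 4.0.16 with TMM or upper-quartile scaling, DESeq2 1.42.0 and each sample left out. The last was repeated with edgeR, an alternative chosen after seeing the data. R was 4.3.3.

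The 8 genes and all lists were chosen with earlier results of these data known. Named are the 8, their relatives, the 3 largest and 3 smallest changes of each list, the markers Kit, Ly6a, Alb, Pecam1, Csf1r and Timd4, and the nearest profile to each of the 8. The other lists hold 183 genes of 13 groups, some in more than 1 list. Icam4 and Mafa were not in the table. Promoter bases are those of RefSeq on GRCm38.p6. Protein sequences were not analysed here. The values of 1 listed gene enter the counts and medians but are not reported here.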

Additional observations from a re-analysis of the deposited data

How the results depend on the processing

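The 8 Kupffer cell identity genes kept a lower level in Pich-KO under every alternative fitted. With at least 10 reads in every sample Clec4f was not tested and 7 of 7 passed. Without the variance trend, 0 genes passed in either direction over all genes, among the 8 and in the other lists, though at an unadjusted p under 0.05 limma had 4034 genes lower and 3343 higher, 8 of 8 and 101 lower and 14 higher in the other lists, and edgeR called 8 of 8. With any 1 sample left out, limma called 0 to 0 genes in each of these, with 7 to 8 of the 8 under an unadjusted p of 0.05, and a lone sample assumed to vary like the other group. edgeR with any 1 sample left out called 8 of 8, 2270 to 3917 genes lower and 1717 to 3685 higher over all genes, and 93 to 117 lower and 14 to 26 higher in the other lists, where the fit to all samples by limma gave 107 and 17. A minimum absolute log2 fold change of 1 left 901 genes higher of 2459. Ngp and S100a9, which did not pass at -0.49 and -0.16, reversed to 0.66 and 1.37 with edgeR without Pich-KO replicate 1. Ngp had 260 and 1220 normalized counts in Pich-KO against 755 and 826 in Pich-WT samples, and S100a9 318 and 2553 against 1058 and 967. That fit thus kept only the higher Pich-KO value of each. Why the Pich-KO samples differed was not tested. With the replicate number as a block, limma called 3874 genes lower and 3122 higher and 8 of the 8. The deviations of same-numbered samples had a correlation of 0.01 over 10544 genes. That value shows no pairing by number but cannot decide it, since litters and batches were not given. Genes with few reads in Pich-KO, such as Clec4f, limit the precision of their fold changes.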

Other observations

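Granulocyte genes, given above only by their median, were higher in Pich-KO LSK cells where they passed the test. Of 8 granulocyte markers, 0 were called lower, 3 higher and 5 did not pass in limma with Benjamini-Hochberg adjustment. Mpo, the myeloperoxidase of neutrophil precursors, had normalized counts of 54647 and 90492 in Pich-KO against 10351 and 12533 in Pich-WT samples (log2 fold change 2.63, limma adjusted p = 0.000151). Prtn3, a granule protease, had 6835 and 15270 against 1468 and 1607 (2.73, limma adjusted p = 0.000756), and Ctsg, cathepsin G, 922 and 3418 against 237 and 335 (2.65, limma adjusted p = 0.00933). Ly6g, the antigen of mature neutrophils, had normalized counts of at most 3 in any sample.

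The Pich-KO samples differed from each other in these genes. All 8 were higher in Pich-KO sample 2, with a median log2 ratio of sample 1 to sample 2 of -2.05, while all 12 LSK and stem cell markers were higher in sample 1, with a median of 0.62. S100a9 had 318 and 2553 normalized counts in the Pich-KO samples, on either side of the Pich-WT values of 1058 and 967.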
